A study of Mus musculus with 6 samples.

Results

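Light chain V segments are the germline gene pieces that encode most of the variable part of an antibody light chain, and 109 of the 163 kappa and lambda V segments annotated in the count table were described here. Members had a GENCODE M21 symbol beginning with Igkv or Iglv and the biotype IG_V_gene or IG_V_pseudogene, and were chosen by a measured value, 50 or more counts summed over the 6 libraries of both groups. Of these, 106 were kappa segments on chromosome 6 and 3 were lambda segments on chromosome 16, in 23 families, and 101 were annotated as functional genes and 8 as pseudogenes. The whole table held 54838 genes. Because the rule summed both groups, the counts themselves are no finding, while the comparison of the groups did not enter the choice.

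Activated mouse B cells were compared after culture with Cpd10, a small molecule described in the labels as inhibiting the transcription factor FOXO1, and with its solvent DMSO. The Cpd10 group received 1 µM Cpd10 and the DMSO group received solvent alone, in both cases for 48 hours from day 3 to day 5 of culture, with 3 libraries per group labelled A, B and C. All cells were naive B cells sorted from the spleens of 10 male mice aged 3 months that had been immunised with SRBC 9 days earlier, over 2 independent experiments; they were pooled and activated for 5 days with 80 ng/ml interleukin 4 and 5 µg/ml antibody against CD40, which imitate help from T cells. The labels do not name the mouse strain, and because the cells of several animals were pooled, the libraries do not represent single animals. The V segments are those of the reference annotation, so if the mice were of another strain, reads of their own segments may have been assigned to a near relative, which would bear on every value of a single segment.

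Each developing B cell joins 1 V segment to a J segment by recombination and transcribes the joined V and J with a constant region gene, Igkc for kappa or an Iglc gene for lambda. The V segment used in a cell therefore appears in its mature messenger RNA, and in the mouse most light chains are kappa. In pre-B cells FOXO1 is known to promote transcription of the recombinase genes Rag1 and Rag2, which mature B cells normally keep silent. Reads over a V segment thus report which light chains a cell population already carries, weighted by how much light chain RNA each cell makes; in these bulk libraries, fewer cells using a segment and less RNA per cell cannot be told apart.

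The last 69 bases of 10 germline segments are shown because they carry the part of the light chain that contacts antigen at the join to J, and because they set the most abundant segments beside their closest relatives among the members. They are GENCODE M21 transcript sequences (GRCm38), written 5′ to 3′ on the coding strand. Capitals run from the conserved cysteine codon, found with the motif TANTNNTGN on the coding strand within the last 45 bases, to the germline end. They hold the cysteine codon and, after it, the part of the third complementarity-determining region that V encodes.
Iglv1: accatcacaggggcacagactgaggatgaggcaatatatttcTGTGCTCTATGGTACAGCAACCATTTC
Iglv2: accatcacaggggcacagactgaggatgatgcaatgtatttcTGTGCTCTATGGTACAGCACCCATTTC
Igkv1-117: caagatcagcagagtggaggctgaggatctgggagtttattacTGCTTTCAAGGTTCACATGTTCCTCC
Igkv1-110: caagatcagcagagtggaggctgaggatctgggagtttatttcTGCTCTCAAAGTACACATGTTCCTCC
Igkv1-135: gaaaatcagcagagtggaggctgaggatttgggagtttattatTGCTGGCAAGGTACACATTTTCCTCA
Igkv1-133: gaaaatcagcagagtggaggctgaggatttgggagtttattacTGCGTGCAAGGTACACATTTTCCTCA
Igkv10-96: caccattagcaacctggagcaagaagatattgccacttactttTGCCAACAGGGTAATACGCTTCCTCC
Igkv10-94: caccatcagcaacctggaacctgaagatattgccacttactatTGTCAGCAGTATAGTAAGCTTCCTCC
Igkv5-43: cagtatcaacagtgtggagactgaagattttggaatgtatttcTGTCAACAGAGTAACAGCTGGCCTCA
Igkv5-45: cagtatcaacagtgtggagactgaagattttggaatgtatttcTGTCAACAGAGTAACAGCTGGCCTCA

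Iglv1 and Iglv2 differed at 12 of 366 aligned bases over their whole transcripts, Igkv1-117 and Igkv1-110 at 10 of 401, Igkv1-135 and Igkv1-133 at 13 of 374, Igkv10-96 and Igkv10-94 at 16 of 347, and Igkv5-43 and Igkv5-45 at 6 of 379, with the printed ends of the last pair identical. The cysteine motif was found in 105 of the 109 members, whose capitals took 93 distinct forms, 9 of them shared by 21 members. The most shared form belonged to 5 segments of the Igkv4 family (Igkv4-59, Igkv4-68, Igkv4-71, Igkv4-72 and Igkv4-73). Of all members, 54 were at least 95% identical to another member and 20 at least 97%, so reads could be divided between copies in a way that depends on the authors' alignment and counting. The sources used here do not say whether the authors' counting used the strand or kept reads with several matches, and values of single near-identical members are uncertain.

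The libraries held 36873204 to 44859930 counts each, of which 141617 to 422917 fell on the 109 light chain V segments. Apart from the treatment, libraries of both groups resembled each other in sets of 3: Cpd10 A, DMSO A and DMSO C (set 1), and Cpd10 B, Cpd10 C and DMSO B (set 2). This division was known from earlier results and was found again without immunoglobulin genes, as the split for which the greatest number of genes (5, against 1 for the next split) had no more than 3 counts in each library of 1 side and at least 50 in each library of the other. It is not in the labels. Levels are given as CPM, counts per 1000000 of the normalised library size. B cell markers were high in every library (the 8 markers summed to between 4563 and 5913 CPM in Cpd10 and between 5397 and 5748 CPM in DMSO), and the markers of other cells are given with the companion genes at the end.

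Light chain V transcripts were abundant in both groups, and their total level did not separate Cpd10 from DMSO. Light chain V segments together stood at 6365, 3792 and 3769 CPM in Cpd10 A, B and C and at 4872, 4285 and 10289 CPM in DMSO A, B and C. The groups overlapped, with a single library, DMSO C, far above the others; the means were 4642 ± 1492 CPM in Cpd10 and 6482 ± 3310 CPM in DMSO (SD, n = 3 each). Without DMSO C the difference between the means was 63.3 CPM, against -1840 CPM with it. All 3 libraries of set 2 lay below all 3 of set 1.

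Companion transcripts of the same cells moved with this total across the libraries. Igkc, the kappa constant region gene, had 7621, 5149 and 4722 CPM in Cpd10 A, B and C and 5971, 5094 and 12285 CPM in DMSO A, B and C, with the same library highest. Heavy chain V segments summed to 3810, 1670 and 1685 CPM in Cpd10 and to 2932, 1997 and 6604 CPM in DMSO. Jchain, which joins secreted IgM and IgA into polymers and marks antibody-secreting cells, had 732, 262 and 224 CPM in Cpd10 and 730, 407 and 2057 CPM in DMSO. DMSO C was thus highest for all of these, and Jchain differed far more between libraries than the light chain V total did. Sdc1, a surface marker of plasma cells, had 37.7, 7.41 and 6.87 CPM in Cpd10 and 39.2, 10.7 and 87.7 CPM in DMSO, again highest in DMSO C. Prdm1, Xbp1 and Tnfrsf17, also plasma cell markers, were highest in DMSO C too, while Irf4 and Mzb1 were not. Irf4 was highest in Cpd10 A, at 889 CPM against 617 CPM in DMSO C. Mzb1 had 770, 1523 and 1352 CPM in Cpd10 and 820, 1437 and 1001 CPM in DMSO, with the set 2 libraries high. The 7 plasma cell markers summed to between 3588 and 3857 CPM in Cpd10 and between 3182 and 5362 CPM in DMSO, with none of the 7 at 0 in every library, and their part in the V level was not tested.

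**Figure D1:**
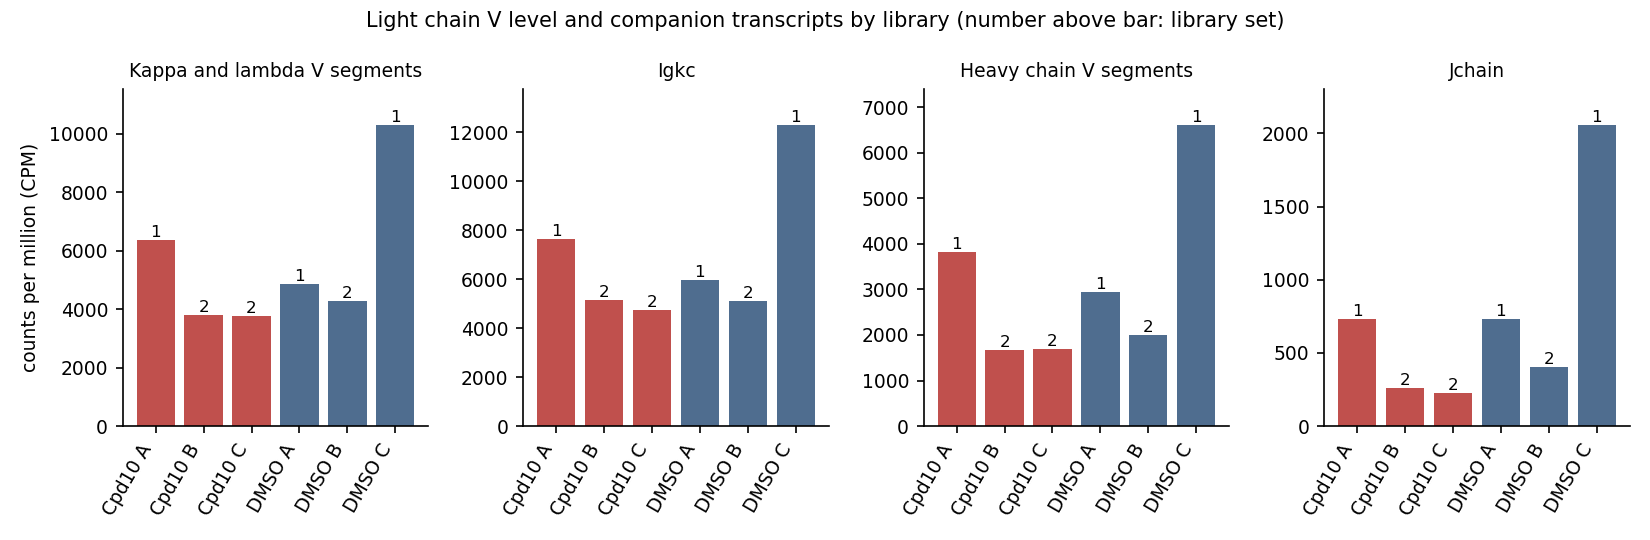
Level in each of the 6 libraries, in CPM, of all 109 kappa and lambda V segments together, Igkc, all heavy chain V segments together and Jchain; each bar is 1 library, red for Cpd10 and blue for DMSO, and the number above it is its library set. DMSO C is the highest bar in every panel, at 10289 CPM for the light chain V segments, and the set 2 libraries are lower than the set 1 libraries.

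No single V segment passed the test between Cpd10 and DMSO. By edgeR's quasi-likelihood test with Benjamini-Hochberg adjustment over 15136 genes, 0 of the 109 segments, all of which were tested, were called at an adjusted p under 0.05, where 0.37% of all tested genes were called. Of the 109, 0 had an unadjusted p under 0.05, against 8.39% of all tested genes. DESeq2 called 0 of the 109, with 5 at an unadjusted p under 0.05, where 5.88% of its 25082 genes had one. The smallest p was that of Igkv4-54 (0.0648, edgeR adjusted p = 0.642).

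Most fitted log2 fold changes were on the same side. They lay below 0 for 101 segments and above 0 for 8, with a median of -0.50 and a range from -1.76 to 1.19, beside a median of -0.0012 over all tested genes. This direction rested on DMSO C: without it, 55 of the 108 segments tested lay below 0 and the median was -0.0021. With a term for the library set in the edgeR fit, chosen with earlier results known, the median was -0.21, 91 segments lay below 0, and 0 were called, where 3.96% of all tested genes were. By CPM, the 3 Cpd10 libraries lay below all 3 DMSO libraries for 2 segments (Igkv4-71 and Igkv4-77), 1.83% of the members against 7.32% of all tested genes, and above them for 0 segments, against 7.31%.

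The levels of the most abundant segments show the same pattern one by one. Iglv1 (chr16:19085017-19085500, minus strand, ENSMUSG00000076934), the main lambda segment of the mouse, had 307, 210 and 201 CPM in Cpd10 A, B and C and 236, 236 and 554 CPM in DMSO A, B and C. The groups overlapped and only DMSO C stood far above the rest, with an edgeR log2 fold change of -0.51 with an SE of 0.37 (adjusted p = 0.817). Igkv1-117 (chr6:68121046-68121827, plus strand) had 287, 180 and 185 CPM in Cpd10 and 205, 189 and 465 CPM in DMSO, with an edgeR log2 fold change of -0.40 with an SE of 0.39 (adjusted p = 0.871). Igkv1-110 (chr6:68270485-68271267, plus strand) had 248, 128 and 134 CPM in Cpd10 and 187, 175 and 470 CPM in DMSO, with an edgeR log2 fold change of -0.71 with an SE of 0.47 (adjusted p = 0.785). Both again overlapped between the groups. Per kilobase of exon, the highest mean levels over all 6 libraries were 744 CPM per kb for Iglv1, 628 for Igkv10-96, 624 for Igkv1-117, 593 for Igkv1-135 and 558 for Igkv1-110, each a level and not a difference, and the ranges of these neighbours over the libraries overlapped.

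Segments with the smallest p in each direction were mostly of low abundance. Igkv4-54 had 2.34, 1.01 and 1.65 CPM in Cpd10 and 1.75, 2.7 and 8.37 CPM in DMSO, and Igkv4-71 had 1.45, 1.19 and 0.213 CPM in Cpd10 and 1.66, 1.87 and 4.06 CPM in DMSO (edgeR: log2 fold change -1.40, SE 0.70 and adjusted p = 0.685). Igkv8-16 averaged 7.19 ± 1.33 CPM in Cpd10 and 10.8 ± 3.84 CPM in DMSO (SD, n = 3 each; edgeR adjusted p = 0.672). In the other direction, Igkv3-9 had 1.98, 1.07 and 0.825 CPM in Cpd10 and 0.605, 0.495 and 0.900 CPM in DMSO, with an edgeR log2 fold change of 0.95 with an SE of 0.52 (adjusted p = 0.722). Igkv11-106, Igkv2-137 and Igkv4-78 also had fold changes above 0, of 0.84, 1.19 and 0.17 on the log2 scale, none past the test. At the threshold of the choice, Igkv2-137 was just inside with 10, 10 and 16 counts in Cpd10 and 3, 0 and 13 in DMSO, and Igkv1-131 just outside with 10, 2 and 0 counts in Cpd10 and 0, 4 and 10 in DMSO. Of the 54 segments under the threshold, 31 had no count in any library.

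Usage, the share of V counts that a segment or family takes within a library, does not depend on the total. The same 5 segments led in all 6 libraries (Iglv1, Igkv1-117, Igkv1-135, Igkv10-96 and Igkv1-110), and 9 segments were among the top 10 of every library. The effective number of segments, the exponential of the Shannon entropy of the shares, was 59.9, 57.6 and 57.4 in Cpd10 A, B and C and 60.2, 58.0 and 58.4 in DMSO A, B and C. Iglv1 was first everywhere, with 4.82, 5.55 and 5.35% of light chain V counts in Cpd10 and 4.84, 5.50 and 5.39% in DMSO. The 10 leading segments took 34.8, 35.9 and 36.5% in Cpd10 and 34.8, 36.6 and 36.9% in DMSO. No library was dominated by a few segments, and both measures overlapped between the groups. A mean share of at least 1% was reached by 39 of the 109 segments.

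Lambda usage was close in the 2 groups. Lambda segments took 6.62, 8.12 and 7.62% of light chain V counts in Cpd10 A, B and C and 6.91, 8.23 and 7.62% in DMSO A, B and C, with means of 7.45 ± 0.766% in Cpd10 and 7.58 ± 0.659% in DMSO (SD, n = 3 each). The difference of -0.13 percentage points was smaller than the spread within either group, and the set 2 libraries lay at or above the highest set 1 library. Within each set, every Cpd10 library lay below every DMSO library. The mean of the differences within the sets was -0.50 percentage points and was not tested. It was smaller than the spread within either group, but that spread also holds the difference between the sets and so cannot gauge it. The 95% Wilson interval of Cpd10 A, the lowest library, ran from 6.53 to 6.71%, and covers counting error only. Among the 3 lambda segments, Iglv3 set the libraries apart: it took 0.964, 1.73 and 1.58% in Cpd10 and 1.17, 1.95 and 1.16% in DMSO, above in set 2 and overlapping between treatments. Iglv2, the near relative of Iglv1, took 0.833, 0.849 and 0.700% in Cpd10 and 0.897, 0.772 and 1.07% in DMSO.

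The 106 kappa segments fell into 20 families, and none of the families with a mean share of at least 5% separated Cpd10 from DMSO. Igkv4, the largest family with 31 members, took 16.4, 13.3 and 12.8% of kappa V counts in Cpd10 A, B and C and 15.6, 14.4 and 17.0% in DMSO A, B and C. The groups overlapped, while all set 2 libraries lay below all set 1 libraries. The difference between group means was -1.52 percentage points, and within the sets it was 0.047 in set 1 and -1.35 in set 2. It was -2.62 without Cpd10 A, -0.85 without Cpd10 C and -0.86 without DMSO C. Igkv6 (9 members) took 13.7, 15.2 and 15.4% in Cpd10 and 13.6, 14.0 and 13.1% in DMSO, higher in set 2 and overlapping between treatments, with differences of 0.39 percentage points in set 1 and 1.30 in set 2. Igkv8 (10 members) took 8.71, 11.6 and 11.5% in Cpd10 and 9.22, 11.1 and 8.64% in DMSO, with the set 2 libraries high. Its difference of 0.95 percentage points ran from 0.43 without DMSO C, 0.45 without Cpd10 B and 0.49 without Cpd10 C to 1.69 without DMSO B and 1.90 without Cpd10 A.

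The other families of at least 5% also overlapped between the treatments. Igkv1 (8 members) took 14.2, 14.3 and 14.5% in Cpd10 and 14.0, 15.3 and 15.6% in DMSO, a difference of -0.64 percentage points, which was -0.60 in set 1 and -0.94 in set 2, -1.13 without DMSO A and -0.34 without DMSO C. Igkv3 (9 members) averaged 7.38 ± 0.275% in Cpd10 and 6.87 ± 0.795% in DMSO, and Igkv12 (7 members) averaged 7.58 ± 0.627% in Cpd10 and 6.76 ± 0.406% in DMSO (SD, n = 3 each). The difference of Igkv3, 0.51 percentage points, was 0.41 in set 1 and 1.17 in set 2, 0.89 without DMSO A and 0.098 without DMSO B. That of Igkv12, 0.82, was 0.31 in set 1 and 0.74 in set 2, and Igkv12 was higher in set 2 than in set 1. For Igkv3, Igkv6 and Igkv12, every Cpd10 library lay above every DMSO library within each set. In the other kappa families of at least 5%, neither order held in both sets. These orders were not tested. Igkv10 and Igkv5 differed by -0.089 and -0.052 percentage points between the group means. These are sums over members, so they are described by their spread without a p; with 3 libraries against 3, an exact permutation test could not go below p = 0.1.

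**Figure D2:**
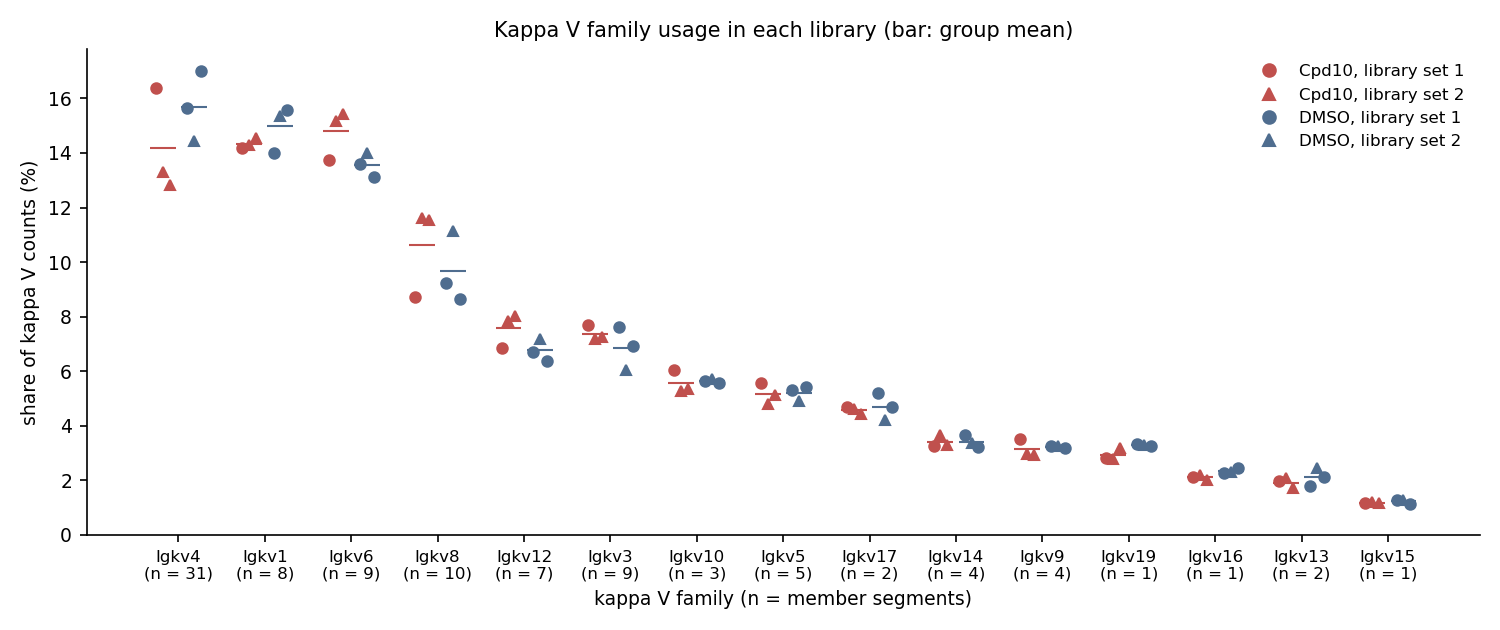
Share of kappa V counts (%) taken by each of the 15 kappa V families with a mean share of at least 1%, in each of the 6 libraries; red points are Cpd10 and blue points DMSO, circles are set 1 and triangles set 2, and the horizontal bars are group means. In Igkv4 and Igkv8 the circles and triangles separate while the colours overlap, and Igkv19 and Igkv16 are the families in the plot whose colours do not overlap.

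In 3 of the 23 families all Cpd10 libraries lay below all DMSO libraries, each of them a family of 1 member. Over all tested genes, 7.32% lay below in this way by CPM. Igkv19, made up of Igkv19-93 (chr6:68736297-68736780, minus strand), took 2.82, 2.79 and 3.19% of kappa V counts in Cpd10 and 3.33, 3.30 and 3.27% in DMSO. Igkv16, made up of Igkv16-104 (chr6:68425575-68426072, plus strand), took 2.13, 2.19 and 2.01% in Cpd10 and 2.28, 2.30 and 2.45% in DMSO. Igkv20, made up of Igkv20-101-2, took at most 0.028% of kappa V counts in any library. Because the libraries did not overlap, the same order within each set follows from how these families were picked and adds no evidence. The differences for Igkv19 were -0.48 percentage points in set 1 and -0.32 in set 2. For Igkv16 they were -0.23 in set 1 and -0.20 in set 2. No family lay above DMSO in all Cpd10 libraries, where 7.31% of all tested genes did by CPM.

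By single segment, the groups separated in a portion of the members close to that of all genes. The Cpd10 libraries lay below the DMSO libraries for 8 segments and above them for 7, which is 7.34% and 6.42% of the members, beside the 7.32% and 7.31% given above for the CPM of all tested genes. Of the abundant ones, Igkv1-135 took 3.92, 4.02 and 3.94% of light chain V counts in Cpd10 and 4.03, 4.60 and 4.44% in DMSO. Igkv3-2 took 1.71, 1.90 and 1.78% in Cpd10 and 1.68, 1.40 and 1.62% in DMSO, and Igkv6-20 took 0.838, 0.784 and 0.937% in Cpd10 and 0.658, 0.763 and 0.688% in DMSO. In these examples the groups were close together, with gaps of a small fraction of the share. Among segments with a mean of at least 10 CPM, Igkv3-1 and Igkv4-70 had the most extreme log2 ratios of mean shares, 0.53 and -0.45. Igkv3-1 took 0.329, 0.312 and 0.345% in Cpd10 and 0.235, 0.261 and 0.188% in DMSO. Igkv4-70 took 0.461, 0.444 and 0.385% in Cpd10 and 0.490, 0.569 and 0.701% in DMSO. Neither overlapped between the groups. The largest differences between group means were 0.572 percentage points for Igkv6-32, higher in Cpd10, and -0.561 for Igkv1-110, while 82 segments differed by less than 0.1 percentage points in either direction. The 95% Wilson interval of a member's share in 1 library, which covers counting error only, reached at most 0.117 percentage points to either side.

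**Figure D3:**
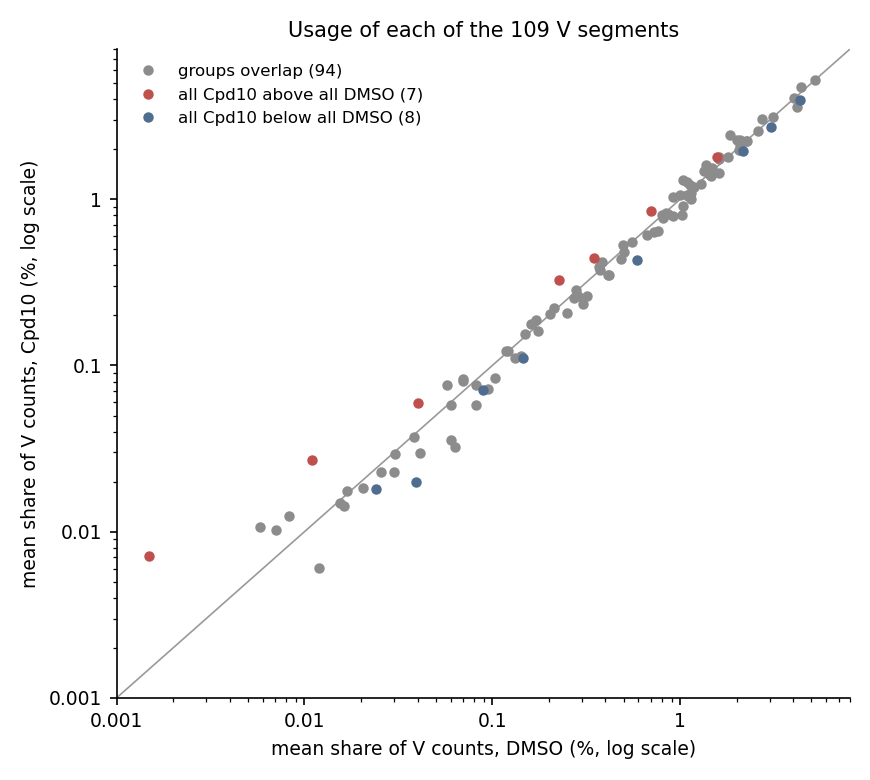
Mean share of light chain V counts (%, log scales) of each of the 109 V segments, in Cpd10 on the vertical axis and in DMSO on the horizontal axis; each point is 1 segment, the line marks equal shares, and the colours mark segments whose 3 Cpd10 libraries lie all above (7), all below (8) or among (94) the DMSO libraries. Segments with a mean of at least 10 CPM lie within -0.45 to 0.53 of the line on the log2 scale, and some rarer ones lie farther off, the farthest being Igkv2-137 at 2.27.

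Usage was also set side by side between the library sets, which the segments themselves did not define. All set 2 libraries lay above all set 1 libraries in share for 12 segments (11% of the members) and below them for 25 (22.9%), and in CPM they lay below for 70 (64.2%) and above for 0, where over all tested genes 17.1% lay below and 18.8% above. Of the 25 lower shares, 13 were Igkv4 segments, and of the 12 higher ones 5 were Igkv8 segments. Igkv6-32 (chr6:70074024-70074603, minus strand) took 1.81, 2.73 and 2.73% in Cpd10 and 1.68, 2.34 and 1.53% in DMSO, and Igkv12-41 took 0.952, 1.55 and 1.45% in Cpd10 and 1.02, 1.11 and 0.959% in DMSO. For both, all set 2 libraries lay above all set 1 libraries. For Igkv6-32, every Cpd10 library also lay above every DMSO library within each set. For Igkv12-41 that order held in set 2 only, where DMSO B stood nearer to the set 1 libraries than to Cpd10 B and C. These orders within the sets were not tested. Igkv4-57 took 1.77, 1.26 and 1.28% in Cpd10 and 1.64, 1.40 and 1.78% in DMSO, with the set 2 libraries low.

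Whole repertoires were then compared pair by pair. Between libraries of the same set, 3.76 to 5.74% of usage would have to change segment to make the shares equal (6 pairs), and between libraries of different sets 7.15 to 9.05% (9 pairs). By treatment the ranges were interleaved, at 4.11 to 9.05% between a Cpd10 and a DMSO library (9 pairs) and 3.76 to 8.80% within a group (6 pairs). The closest pair across treatments was Cpd10 A with DMSO A, at 4.11%, and Cpd10 A was 8.80% from Cpd10 B. The counts of every pair differed by more than sampling noise, with a chi-square per degree of freedom over the segments of 7.68 to 57.9, where the chi-square covers counting error only and cannot tell separate cultures from repeated preparations of the same RNA. Across the 109 segments, which are not independent replicates, Pearson's r between the shares of 2 libraries ran from 0.970 to 0.996, as a description.

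**Figure D4:**
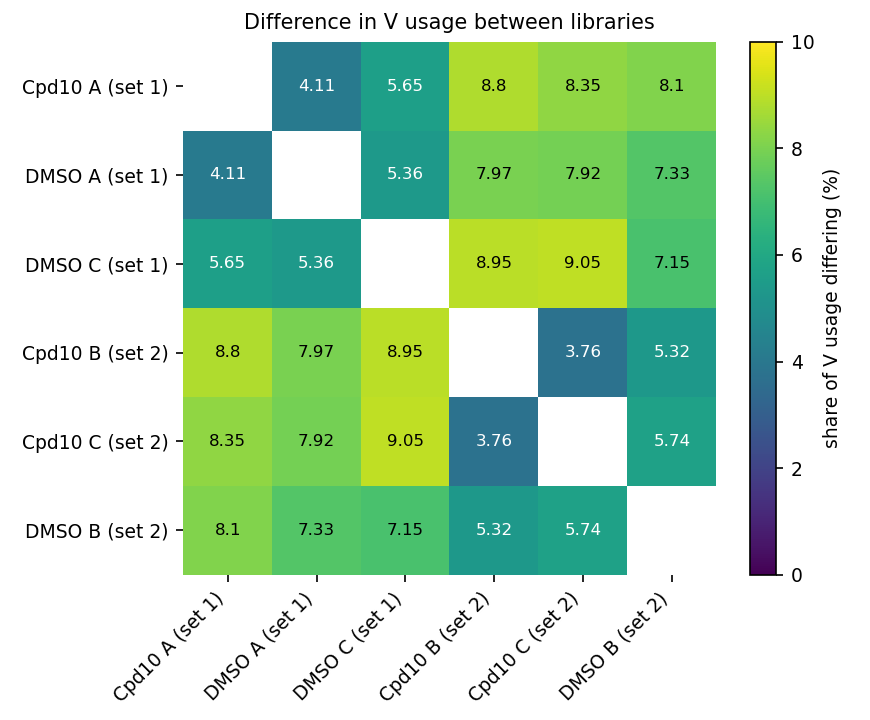
Share of light chain V usage (%) that differs between each pair of the 6 libraries, with the libraries ordered by set; darker cells are more alike, and the number is the value. The 2 dark blocks are the sets, each of which holds libraries of both Cpd10 and DMSO, and the cells between sets run from 7.15 to 9.05%.

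Excess of 1 segment in 1 library was looked for next. Among the 71 segments with a mean of at least 10 CPM, the highest library's share was at most 1.67 times the median of the other 5, reached by Iglv3 in DMSO B. Igkv4-58, with 0.346, 0.187 and 0.249% in Cpd10 and 0.326, 0.222 and 0.415% in DMSO, was next, and Igkv4-63, Igkv4-50, Igkv12-41 and Igkv4-70 followed. Among the 38 rarer segments, where fewer reads stand behind a share, 5 exceeded 2.5 times: Igkv2-137 (3.68, in Cpd10 C) and Igkv3-9 (2.51, in Cpd10 A), and Igkv4-81 (3.31), Igkv7-33 (2.64) and Igkv18-36 (2.62), these last in DMSO C. Igkv4-81, Igkv7-33 and Igkv18-36 were named after their values were seen.

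Usage along the kappa locus was uneven in both groups. Segments within 700 kb of Igkj1, the nearest J segment to the V segments, had a median level of 138 CPM per kb of exon (29 members), against 63.4, 55.1 and 60.8 CPM per kb for those at 700 to 1400, 1400 to 2100 and 2100 to 3200 kb (25, 25 and 27 members). The nearest part took 30.2, 34.0 and 34.3% of kappa V counts in Cpd10 A, B and C and 30.5, 31.2 and 28.8% in DMSO A, B and C, with the groups overlapping and set 2 higher. The farthest part took 30.5, 30.0 and 29.6% in Cpd10 and 31.3, 30.9 and 31.6% in DMSO, and the part from 1400 to 2100 kb took 17.6, 16.8 and 16.6% in Cpd10 and 17.8, 18.6 and 18.3% in DMSO. In these 2 parts all Cpd10 libraries lay below all DMSO libraries: the means were 30.0 ± 0.445% in Cpd10 and 31.3 ± 0.354% in DMSO for the farthest part, and 17.0 ± 0.558% in Cpd10 and 18.3 ± 0.405% in DMSO for the other (SD, n = 3 each), sums for which no test was made. By CPM, 7.32% of all tested genes lay below in this way. The parts divide all kappa V counts among them, so they are not separate observations. The nearest part averaged 32.8 ± 2.28% in Cpd10 and 30.2 ± 1.27% in DMSO (SD, n = 3 each). Igkv1-135 and Igkv16-104 lie in the farthest part and Igkv19-93 in the one before it. The members of the farthest part did not all move alike. Of light chain V counts, Igkv1-117 there averaged 4.73% in Cpd10 and 4.38% in DMSO. Igkv1-110, also there, averaged 3.61% in Cpd10 and 4.17% in DMSO.

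Orientation and annotation class were shared alike. Segments on the same strand as Igkj1 join by deletion and those on the opposite strand by inversion; the 40 on the same strand took 42.4 ± 0.80% of kappa V counts in Cpd10 and 42.8 ± 0.938% in DMSO, and the 66 on the opposite strand took the rest (SD, n = 3 each). The 8 pseudogenes, all kappa, took 0.148, 0.160 and 0.177% of light chain V counts in Cpd10 and 0.170, 0.207 and 0.124% in DMSO. Igkv4-77, the highest pseudogene, had 2.82, 2.64 and 2.24 CPM in Cpd10 and 3.25, 3.19 and 4.14 CPM in DMSO, without overlap, and its edgeR log2 fold change was -0.46 with an SE of 0.28 (adjusted p = 0.753). Igkv4-60 and Igkv4-73 averaged 1.28 ± 0.339 and 0.848 ± 0.282 CPM in Cpd10 and 1.59 ± 0.471 and 1.20 ± 0.389 CPM in DMSO (SD, n = 3 each). All 3 are Igkv4 segments with close functional relatives, from which reads may be shared.

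**Figure D5:**
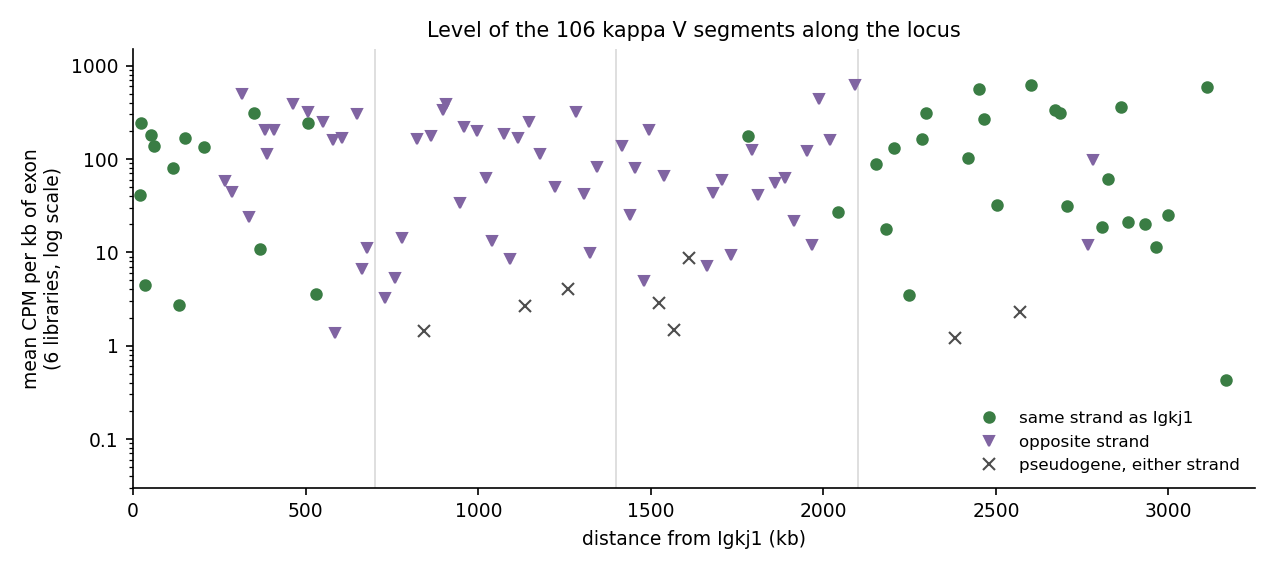
Mean level of the 106 kappa V segments over the 6 libraries, in CPM per kb of exon on a log scale, against the distance from Igkj1 in kb; circles are segments on the strand of Igkj1, triangles those on the opposite strand and crosses pseudogenes, and vertical lines mark 700, 1400 and 2100 kb. High and low segments lie side by side over the whole locus, and the 8 pseudogenes are among the low ones, at 1.20 to 8.65 CPM per kb, with Igkv2-137, annotated as functional, the lowest at 0.427.

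Closely related segments differed widely in level. Igkv5-43 had 150, 74.8 and 89.7 CPM in Cpd10 and 104, 91.5 and 254 CPM in DMSO, while Igkv5-45, with the same printed end, had 15.2, 6.31 and 8.20 CPM in Cpd10 and 13.2, 10.4 and 24.2 CPM in DMSO. Per kilobase their mean levels were 335 and 33.6 CPM per kb. Igkv6-20 and Igkv6-29, which differ at 5 of 375 bases, had 10448 and 128 counts summed over the libraries, and Iglv1 and Iglv2 had 71666 and 12359. The order within each pair was the same in all 6 libraries, and how reads that match both copies were counted is not known.

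None of the light chain joining and constant genes passed the test. Of the 5 constant genes tested, 0 passed; Igkc had an edgeR log2 fold change of -0.42 with an SE of 0.37 (adjusted p = 0.855) and Iglc2 one of -0.46 (edgeR adjusted p = 0.753). Of 9 joining segments, 7 were tested and 0 passed, and Iglj2 and Iglj4 were at 0 in every library. Among kappa joining counts, Igkj3 took 6.01, 9.10 and 7.46% in Cpd10 and 5.91, 6.34 and 6.19% in DMSO, with overlap, and Igkj1 took 23.8, 23.5 and 23.6% in Cpd10 and 24.3, 23.8 and 24.8% in DMSO. Kappa V counts per Igkc count were 0.780, 0.677 and 0.737 in Cpd10 and 0.760, 0.772 and 0.774 in DMSO. The V segments and the constant gene thus gave the same ranking of DMSO C but not the same ratio in every library.

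Genes that make or edit light chains were silent or did not pass the test. Rag1 and Rag2, the recombinase that joins V to J, and Dntt, which adds bases at the joint, had no count in any of the 6 libraries, and neither did Igll1 of the surrogate light chain. Of the 7 end-joining repair genes on the same list, 0 passed; Xrcc6 had 67.5, 83.5 and 84.5 CPM in Cpd10 and 51.9, 78.0 and 55.2 CPM in DMSO, with overlap (edgeR adjusted p = 0.688). Vpreb3, which is retained in mature B cells, had 22.5, 72.3 and 59.6 CPM in Cpd10 and 23.8, 51.1 and 41.1 CPM in DMSO, with the set 2 libraries high in both treatments, and did not pass.

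Of 14 transcription factors and cofactors that act on light chain genes or their octamer promoters, 0 passed the test in the fit with the group alone. Irf8, which with its relative Irf4 binds the kappa enhancer, had 364, 354 and 343 CPM in Cpd10 and 520, 433 and 513 CPM in DMSO, without overlap (edgeR: log2 fold change -0.47, SE 0.11 and adjusted p = 0.208). Irf4 had 889, 591 and 674 CPM in Cpd10 and 529, 495 and 617 CPM in DMSO, with overlap (edgeR: log2 fold change 0.39, SE 0.17 and adjusted p = 0.619). With the library set in the edgeR fit, Irf4 rose (log2 fold change 0.49, adjusted p = 0.0131) and Irf8 and Ikzf3 fell (-0.41, adjusted p = 0.0136, and -0.40, adjusted p = 0.0341), so 3 of the 14 passed there and 11 did not. Pou2af1, the B cell coactivator of octamer sites, and Ebf1, a factor of B cell identity, had log2 fold changes of 0.11 and 0.023 in the fit without the set, neither past the test. Foxo1 itself had 130, 115 and 111 CPM in Cpd10 and 137, 122 and 155 CPM in DMSO, with overlap, and did not pass.

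Antibody secretion genes did not pass either. Of the 6 listed, 0 of 6 tested passed; Prdm1, the master regulator of plasma cells, had 35.2, 20.4 and 21 CPM in Cpd10 and 37.2, 30.4 and 74.3 CPM in DMSO, with the groups overlapping, and Jchain had an edgeR log2 fold change of -1.39 with an SE of 0.74 (adjusted p = 0.730). Among the 8 B cell markers, Fcmr, the Fc receptor for IgM, fell to 33.0, 42.7 and 34.3 CPM in Cpd10, against 83.9, 83.0 and 115 CPM in DMSO (edgeR: log2 fold change -1.36, SE 0.17 and adjusted p = 0.0292), and the other 7 did not pass.

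Markers of other cells were low: the 8 T cell markers summed to 40.4, 32.0 and 29.7 CPM in Cpd10 and 54.9, 45.8 and 73.9 CPM in DMSO, without overlap and nearly all of it Lck and Cd28. Lck, a kinase of T cell receptor signalling, had 26.2, 24.2 and 21 CPM in Cpd10 and 41.8, 37.3 and 49 CPM in DMSO (edgeR adjusted p = 0.0786, and 0.00216 with the library set term). Cd3d, Cd3e, Cd3g, Cd4 and Cd8a reached at most 0.385 CPM and Trac at most 1.29 CPM in any library, and the part of other cells in any V value was not tested. The 8 myeloid markers summed to between 8.90 and 15.4 CPM in Cpd10 and between 14.2 and 22.0 CPM in DMSO, most of it Adgre1, with S100a8 and S100a9 at 0. Adgre1 had 8.77, 14.2 and 13.0 CPM in Cpd10 and 13.9, 21.1 and 20.5 CPM in DMSO. Its edgeR adjusted p was 0.529, and 0.0252 with the library set term (log2 fold change -0.80). The 4 NK cell markers summed to between 0.101 and 3.88 CPM in Cpd10 and between 0.110 and 3.45 CPM in DMSO, the higher sums mostly Gzma, with Ncr1 at 0.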

How the data were processed

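Poly(A) RNA of 6 libraries was sequenced from directional libraries, per the labels' protocols. The values used are raw read counts of each gene, deposited by the authors as whole numbers without normalisation. STAR 2.7.10a, featureCounts 2.0.6, DESeq2 and the build GRCm38 (mm10) are listed in the submitters' processing notes. Gene names and coordinates came from GENCODE M21 (GRCm38), in which 54809 of 54838 identifiers were found.

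Members, gene lists and the library sets were chosen with earlier results of these data known. The whole table was fitted with edgeR 4.0.16 in R 4.3.3 (TMM, filterByExpr, robust quasi-likelihood fit, group only; 15136 genes), with Benjamini-Hochberg adjustment and a threshold of 0.05. Log2 fold changes are Cpd10 minus DMSO, and standard errors (SE) were derived from that value and the root of the F statistic. CPM uses TMM library sizes. Shares were taken of light chain V counts, and those of kappa families and positions of kappa V counts; Wilson intervals cover counting error only. The rule for naming took the 12 most abundant members, family leaders, lambda members, the smallest p in each direction, pseudogenes, uneven members and those near the threshold; other members with values were named after these were seen. Alternatives were another scaling, no filter, DESeq2 1.42.0, blocks, the set term, other member choices and leaving out each library. Fits were tested on simulated data. The values of 1 listed gene are not reported here. The labels do not say what the letters A to C stand for, so p-values reflect variation among these libraries only, and this may be technical.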

Additional observations from a re-analysis of the deposited data

How the results depend on the processing

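No V segment was called in any of the 11 alternatives to the edgeR fit: 0 with DESeq2 size factors, without the low-count filter, with DESeq2, with the library set term, with the replicate block and without each library in turn. Over the whole table, the fits without Cpd10 B, Cpd10 C, DMSO A and DMSO C called only 1, 0, 5 and 1 genes. Calling 0 members there therefore says little. The fits without Cpd10 A and DMSO B called 77 of 15773 and 100 of 15812 genes. DESeq2 called 356 of 25082, the unfiltered fit 194 of 25099, the set term 599 of 15136 and DESeq2 size factors 59 of 15136. Deviations of same-letter libraries from their group means correlated at 0.387, 0.570 and -0.442 for A, B and C. Over all pairs of a Cpd10 and a DMSO library, these correlations were positive within a set and negative between sets. The check therefore cannot tell whether the letters pair the libraries. The edgeR fit with the replicate block also called 0 members, with 49 genes called over the whole table in place of 56. Totals, lambda and family shares and the effective number moved by less than their spread between libraries, the pooled SD, in all 116 comparisons with an alternative. For leaving out 1 library this outcome was fixed in advance, because with 3 libraries per group such a shift cannot exceed that spread. The count of 116 therefore does not measure robustness. Leaving out 1 library moved several differences by over 1.5 times. The total ran from -2939 to 63.3 CPM, the lambda share from -0.47 to 0.29 percentage points and the effective number from -1.36 to 0.098. The shares of Igkv10 ran from -0.33 to 0.049 and of Igkv5 from -0.25 to 0.13, with those of Igkv4, Igkv8, Igkv1 and Igkv3 given above. The alternatives included counts divided by exon length, which was added after seeing the data. Of 230 alternative fold changes of named segments, 220 kept their sign and 10 did not. Leaving out each library gave log2 fold changes of -0.72 to 0.026 for Iglv1, -0.64 to 0.14 for Igkv1-117, -0.82 to 0.057 for Igkv10-96, -0.76 to 0.0089 for Igkv6-15, -0.53 to 0.14 for Igkv12-44, -0.78 to 0.047 for Igkv6-23, -0.82 to 0.056 for Igkv17-127, -0.85 to 0.11 for Igkv5-43 and -0.89 to 0.092 for Igkv9-120, each above 0 without DMSO C, and -0.0058 to 0.33 for Igkv4-78, below 0 without Cpd10 A; the cause was not tested. Depth did not limit the shares of abundant segments; it limits segments of low count such as Igkv2-137.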
